A study of Homo sapiens with 8 samples.

Results

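The comparison set OPM-2 myeloma cells given all-trans retinoic acid (ATRA) on top of pomalidomide (POM) against the same cells given POM alone, by the regions each ChIP-seq peak list called. OPM-2 is an established human plasma cell line that carries the t(4;14) translocation. The ATRA+POM cells had 1 µM ATRA and 1 µM POM for 72 h, and the POM cells had 1 µM POM for 72 h. Cells given DMSO, the vehicle, and cells given 1 µM ATRA alone, both also for 72 h, are used only to place regions. Members were all peaks on chromosomes 1-22 and X of the 2 lists, chosen by position alone: 47193 ATRA+POM peaks and 54279 POM peaks, 101472 of the 189160 peaks in the 4 lists of the series. Each list came from 1 library, so nothing here has a replicate check and no difference was tested. The antibody is not given in the sources used here, so a peak is described as a called region and not as any particular factor or mark.

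ATRA acts through nuclear receptors. RARA, RARB and RARG pair with RXR partners on direct repeats of a short hexamer, and ligand swaps corepressors for coactivators there. The DR5 element, a pair of half-sites with 5 bases between them, is the best known of these, and RARB and CYP26A1 carry textbook examples. Pomalidomide binds cereblon, the substrate receptor of a ubiquitin ligase, and directs it to degrade the lymphoid transcription factors IKZF1 and IKZF3.

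Both libraries had similar depth as far as the lists show it. The reads at each summit were recovered from the deposited fold enrichment and p-value and came out whole, within 0.02, for 100% of ATRA+POM and 99.998% of POM peaks. The implied relative depth of ATRA+POM was 0.973 of POM. The ATRA list was far shallower, at 0.143 of POM, so absence from it carries little weight. The median peak had 65 summit reads in the ATRA+POM list and 72 in the POM list. The median width was 391 bp with ATRA+POM and 462 bp with POM, and the called sequence covered 30.8 Mb and 43.6 Mb. All 10 plasma cell markers, among them SDC1, TNFRSF17, SLAMF7 and IRF4, had a peak at a gene edge in both lists. Of the 10 T cell and 10 myeloid markers none had one with ATRA+POM, and LCK and CD3E had one with POM (93 and 92 summit reads). Of the 10 epithelial markers ELF3 alone had one, with 107 reads in the ATRA+POM list and 271 in the POM list. Of the 10 fibroblast markers COL1A1 had one only with ATRA+POM (28 reads) and TWIST1 only with POM (20 reads). A gene edge here means within 1000 bp of an annotated RefSeq start, or of either annotated end for the 4158 of 19970 protein-coding genes whose start the reference table lacked.

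The sequences below are shown because the results return to them. They run from 250 bases before an annotated start to 50 after it (RefSeq, GRCh38.p14, 5′ to 3′ on the gene's strand, here always the plus strand). In the RARB promoter (chr3:25428013-25428312) and the CYP26A1 promoter (chr10:93073643-93073942) capitals mark the DR5 match, which starts 53 and 90 bases before the start. In the CD1D promoter (chr1:158179697-158179996) capitals mark the 170 of 300 bases covered by peaks that only the ATRA+POM list held.
RARB: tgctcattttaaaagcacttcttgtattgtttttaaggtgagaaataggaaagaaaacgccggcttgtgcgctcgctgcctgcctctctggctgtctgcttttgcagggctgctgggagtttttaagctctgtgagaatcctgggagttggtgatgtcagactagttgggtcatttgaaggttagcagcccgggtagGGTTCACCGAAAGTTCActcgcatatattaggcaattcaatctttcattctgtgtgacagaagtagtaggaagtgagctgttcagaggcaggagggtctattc
CYP26A1: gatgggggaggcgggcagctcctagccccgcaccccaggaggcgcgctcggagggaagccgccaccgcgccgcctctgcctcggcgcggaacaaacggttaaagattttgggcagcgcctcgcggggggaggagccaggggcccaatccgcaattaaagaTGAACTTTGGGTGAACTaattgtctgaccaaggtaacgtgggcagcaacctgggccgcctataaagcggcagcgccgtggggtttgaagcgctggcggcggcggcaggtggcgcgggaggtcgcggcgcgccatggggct
CD1D: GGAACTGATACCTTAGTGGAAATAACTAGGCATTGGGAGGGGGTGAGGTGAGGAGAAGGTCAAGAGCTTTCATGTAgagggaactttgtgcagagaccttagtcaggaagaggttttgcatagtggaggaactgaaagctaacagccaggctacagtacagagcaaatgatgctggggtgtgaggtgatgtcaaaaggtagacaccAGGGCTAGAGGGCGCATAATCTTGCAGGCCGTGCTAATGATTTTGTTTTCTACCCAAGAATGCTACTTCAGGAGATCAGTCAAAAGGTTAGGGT

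Far more regions were missing than new in the ATRA+POM list. Shared means an overlap of at least 1 bp, an added peak is an ATRA+POM peak with no POM counterpart, and a removed peak is a POM peak with no ATRA+POM counterpart. There were 4944 added peaks, 10.5% of the ATRA+POM list (95% Wilson interval 10.2 to 10.8, counting error only), and 19662 removed peaks, 36.2% of the POM list (35.8 to 36.6). Both sets were weak and narrow. Added peaks had a median of 37 summit reads and 220 bp, removed peaks a median of 37 summit reads and 256 bp, and peaks shared with the other list a median of 71 reads (ATRA+POM) and 127 reads (POM). Only 290 added and 1221 removed peaks reached 100 summit reads. The 42249 shared ATRA+POM peaks overlapped 34617 POM peaks, so single POM peaks could hold several ATRA+POM peaks.

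Added regions lay far from gene edges. Of the added peaks 3.38% touched a gene edge, against 31.2% of the shared ATRA+POM peaks. The median distance of added peaks to the nearest edge was 66.7 kb. Many still lay inside a gene body, 46.4% of the added and 58.7% of the shared ATRA+POM peaks. Of the removed peaks 21.3% touched a gene edge, against 31.9% of the shared POM peaks, with a median distance of 22.3 kb. The added share was lowest on the gene-dense chromosomes 17 (5.23%) and 19 (6.01%) and otherwise between 7.72% and 12.6%. The removed share ran from 32.6% on chromosome 13 to 40.9% on chromosome 20.

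The DMSO list separates regions called in vehicle-treated cells from the rest. An added peak had a DMSO counterpart in 28.8% of cases (1422 of 4944), and 3520 lay in neither the DMSO nor the ATRA list. A removed peak had a DMSO counterpart in 51.1% of cases (10051 of 19662). Peaks the POM list held and the DMSO list lacked were removed in 58.7% of cases, against 26.5% of the POM peaks that DMSO also had. At gene edges these shares were 75.1% (680 of 906) and 24.5% (3502 of 14306). Weak peaks dominate the set that DMSO lacked, so the shares were also taken within 8 equal strata of POM summit reads. In the weakest stratum, 11 to 28 reads, the removed share was 81.8% without a DMSO counterpart and 78.6% with one. At 72 to 108 reads it was 39.0% and 21.2%, and at 175 to 343 reads 8.30% and 2.12%. The removed share was higher without a DMSO counterpart in all 8 strata. In the strongest it rested on 3 of 372 peaks without a counterpart and 8 of 6413 with one. On the ATRA+POM side the peaks that DMSO lacked were added in 31.0% of cases, against 3.97% of those DMSO had.

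**Figure D1:**
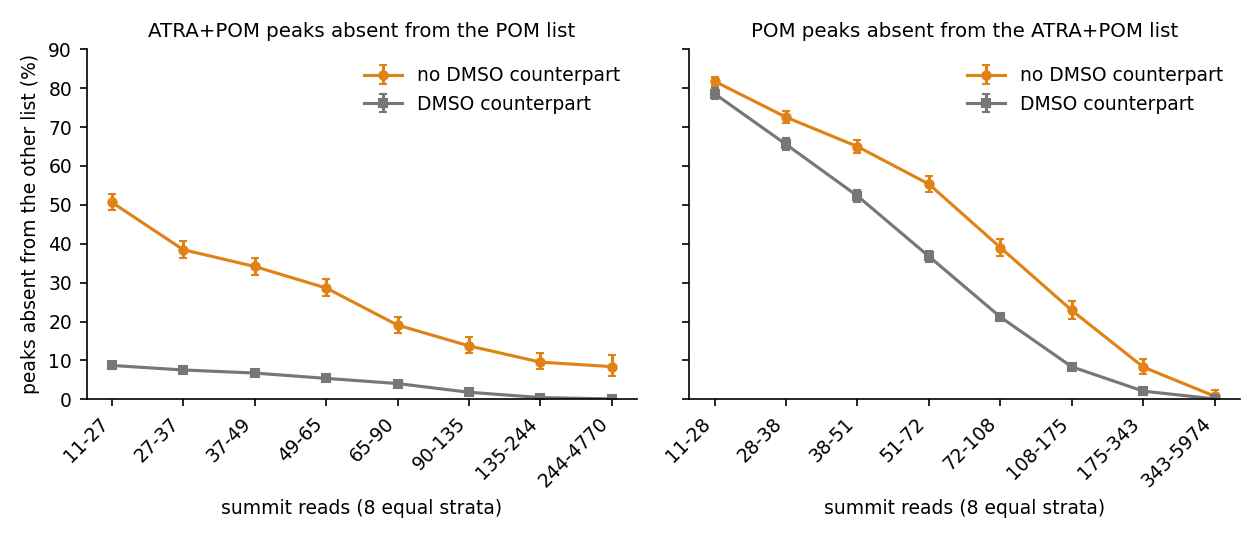
Percent of peaks absent from the other list (y axis) by summit reads in 8 equal strata (x axis), for ATRA+POM peaks (left) and POM peaks (right), with bars for the 95% Wilson interval. Peaks without a DMSO counterpart (circles) sit above those with one (squares) in every stratum of both panels, and the removed share over all POM peaks was 80.4% in the weakest stratum and 0.162% in the strongest.

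Where both lists had a peak, ATRA+POM mostly had fewer reads. At 24189 pairs whose summits lay within 50 bp of each other, the median log2 ratio of summit reads, ATRA+POM over POM, was -0.72 (quartiles -1.11 and -0.21), not scaled for depth. At gene edges it was -0.95, and 159 of 7115 pairs were higher with ATRA+POM. Away from edges it was -0.56 and 24.6% of 17074 pairs were higher. Among pairs with 200 or more POM reads the medians were -0.99 at edges and -0.85 away from them. ATRA+POM was at least 2-fold higher at 674 pairs, 2.79% of the total, and 6 of these were at a gene edge. Absence of a weak peak from the ATRA+POM list does not separate a lost region from a weaker one. With a fold of at least 10 asked of both lists, there were 1545 added peaks, 8.38% of 18442, and 10981 removed peaks, 42.2% of 26003. In that count a peak below a fold of 10 in the other list also counts as absent from it. In a bulk ChIP, fewer cells with a region bound and less binding per cell cannot be told apart. With 1 library a side, neither can be told apart from a difference in enrichment between the libraries.

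**Figure D2:**
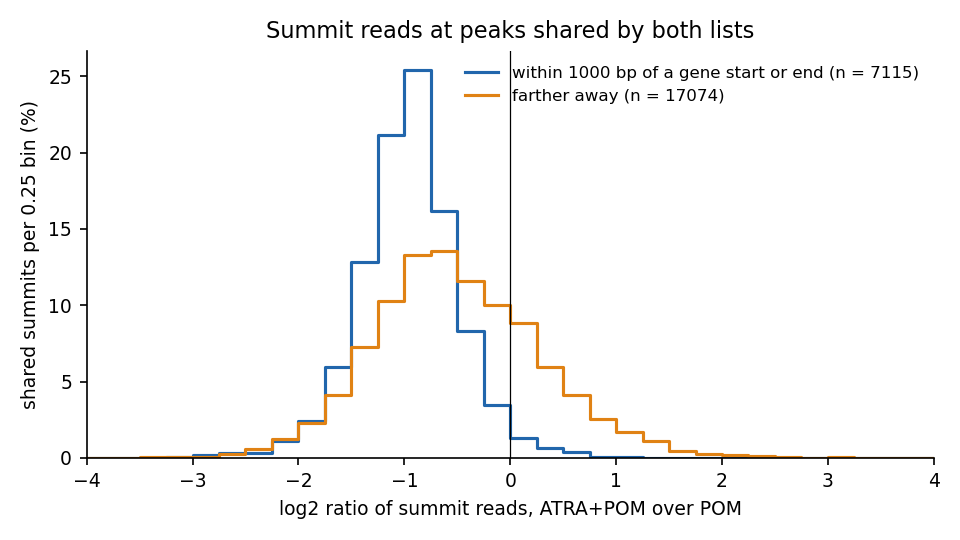
Distribution of the log2 ratio of summit reads, ATRA+POM over POM (x axis), at shared summits, as percent of pairs per bin (y axis). The 7115 pairs at gene edges peak near -1 with few above 0, and the 17074 pairs farther away are broader, with 24.6% above 0.

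CD1D, which encodes the molecule that presents lipids to natural killer T cells, carried the strongest added peak. The peak at chr1:158161946-158164716, 15.2 kb from the nearest start of CD1D, had 2243 summit reads and an authors' fold of 84.3 with ATRA+POM, and none was called there with POM, DMSO or ATRA. An added peak of 406 reads ended 175 bp before the start printed above, and another of 53 reads covered that start. The next peak upstream was shared, with 98 reads in the ATRA+POM list, 109 in the POM list and 161 in the DMSO list. At CD1B, a neighbouring gene of the same lipid-presenting family, both POM peaks were removed (up to 112 reads). They lay at an annotated end of CD1B, whose start was not listed. The same peaks lay 4.107 and 3.701 kb from the nearest annotated start or end of CD1C.

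The enzymes that clear retinoic acid also differed. CYP26A1, a retinoic acid hydroxylase, had 1 ATRA+POM peak of 396 reads and 3546 bp that started 1.625 kb after the nearest start. The POM list had 2 peaks of 44 and 52 reads under it, and the DMSO list had 1 of 45 reads. So the CYP26A1 peak counts as shared, although it was wider and had more reads with ATRA+POM. No list called a peak over its DR5 promoter. CYP26C1, its neighbour of the same family, had 174 reads in the ATRA+POM list, 109 in the POM list and at most 31 in the DMSO list. CYP26B1, another family member on chromosome 2, had 2 added peaks of 42 and 23 reads, 2.748 and 3.686 kb before its start, and no POM peak. The adjoining gene EXOC6B, a subunit of the exocyst, held 15 added peaks across its body, the highest count at any gene, and no POM peak. Its strongest, chr2:72202691-72206087, had 569 reads and lay 54.8 kb from the CYP26B1 start. The DMSO list had 3 weak peaks at EXOC6B, of 45, 53 and 74 reads.

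**Figure D3:**
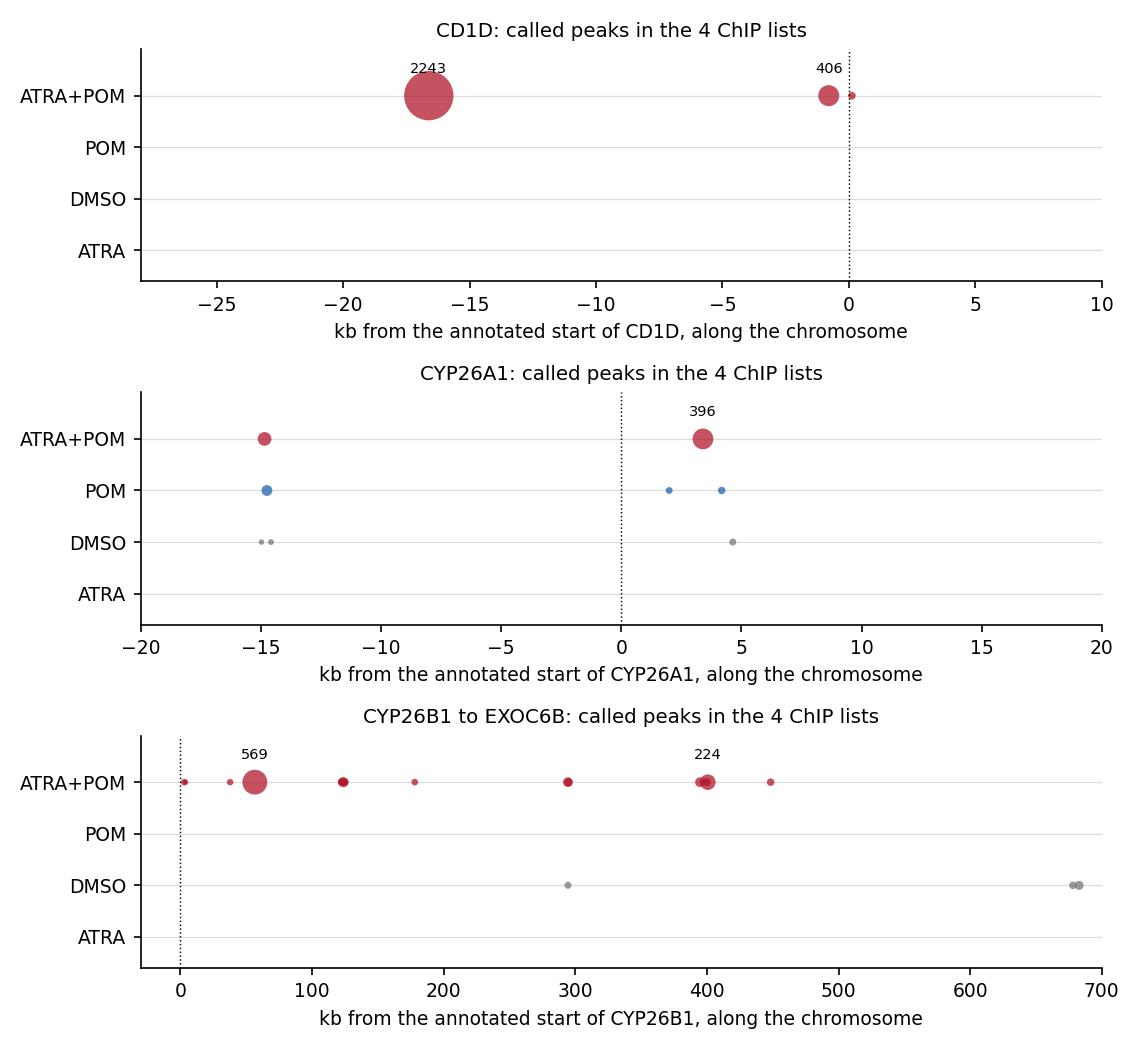
Called peaks at CD1D, CYP26A1 and the stretch from CYP26B1 to EXOC6B, as kb from the annotated start along the chromosome (x axis), with 1 row per list from ATRA+POM at the top to ATRA at the bottom and point area proportional to summit reads (numbers printed from 200 reads). In the windows drawn, the 3 CD1D points and all points from CYP26B1 to EXOC6B outside the DMSO row belong to ATRA+POM, and at CYP26A1 the 396-read peak stands over 2 weak POM peaks.

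Other carriers and enzymes of the pathway had smaller values. DHRS3, a retinaldehyde reductase, had 5 ATRA+POM peaks of up to 105 reads and 4 POM peaks of up to 58 reads, and none with DMSO. LRAT, which esterifies retinol, had 1 added peak of 91 reads and a DMSO peak of 68. RDH10, which makes retinaldehyde, went the other way, with 459 reads with ATRA+POM and 696 with POM at its edge. FABP5, a fatty acid and retinoic acid carrier, had at most 31 reads with ATRA+POM and 962 with POM within 5000 bp of its gene body. No removed peak had more than 599 reads, so the 962-read peak had an ATRA+POM counterpart. The FABP5 values are the strongest peak of each list in that window and are not a matched pair. The lowest log2 ratio of any shared pair with at least 100 reads in either list was -4.18, at 21 reads with ATRA+POM and 380 with POM. So the 2 FABP5 values do not measure a change at a single region. Of these 20 carriers and enzymes, 4 had an added peak at the locus (the gene body and 5000 bp on each side), beside 9.29% of all genes. At least 1 removed peak stood at 38.9% of all genes.

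The receptors themselves were mixed. RARB had 22 ATRA+POM and 23 POM peaks along its long body, with a strongest of 765 reads in the ATRA+POM list, 1175 in the POM list and 291 in the DMSO list. No list called a peak over the DR5 promoter printed above, and the nearest lay 22.3 kb (ATRA+POM) and 21.1 kb (POM) away. At its edge RARA had 140 reads in the ATRA+POM list, 274 in the POM list and 530 in the DMSO list. RARG had 20 reads at its edge with ATRA+POM and 22 with POM. The strongest peak near RARG had 485 reads with ATRA+POM and 870 with POM. It lay outside the gene body, 23.1 kb (ATRA+POM) and 22.2 kb (POM) from the RARG start. RXRA had 23 reads at its edge with ATRA+POM and 28 with POM. Its strongest peak away from the edge had 88 reads with ATRA+POM and 180 with POM. RXRG had 1 added peak of 91 reads. Over the 6 receptors 8 of 59 ATRA+POM peaks were added and 19 of 55 POM peaks were removed. Over all peaks the shares were 10.5% and 36.2%.

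Genes known to respond to retinoids in other cells had a mixed pattern. NRIP1, a corepressor of nuclear receptors, had 7 peaks of up to 651 reads with ATRA+POM and 5 of up to 216 with POM. A run of 9 added peaks, the strongest 461 reads, lay 186 kb from its nearest start with no POM peak in it. CD38, an ectoenzyme and antibody target in myeloma, had 526 reads at its edge in ATRA+POM cells, 416 in POM cells and 314 in DMSO cells, a log2 ratio of 0.34. Among the 13 classic retinoid targets with an edge peak in both lists no other gene was higher with ATRA+POM, nor was any other of the 10 plasma cell markers. ATRA+POM was higher at 145 of 8314 such genes, 1.74% of the total. The 13 targets had a median log2 ratio of -0.77, beside -0.98 over all 8314, but their POM peaks were weaker (median 126 reads, beside 193). With at least 100 POM reads the medians were -0.88 (8 targets) and -1.01 (6371 genes). CEBPB, a myeloid transcription factor, was well below that, with 26 reads with ATRA+POM and 126 with POM. ICAM1, an adhesion receptor, had no ATRA+POM peak and 3 POM peaks of up to 84 reads.

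The genes highest at the edge included several outside the lists, named after their values were seen. DOP1A had 597 reads in ATRA+POM cells, 79 in POM cells and 180 in DMSO cells. DSCAML1, a cell adhesion gene, had 680 reads in ATRA+POM cells, 90 in POM cells and 1194 in DMSO cells, so the combination stood nearer to DMSO than POM did. PLAAT4, a retinoid-responsive phospholipase, had 139 reads with ATRA+POM and 80 with POM. CD274, which encodes the checkpoint ligand PD-L1, had 688 reads in ATRA+POM cells, 409 in POM cells and 44 in DMSO cells. IFI16, a DNA sensor, had 237 reads with ATRA+POM and 165 with POM, and no other of the 23 interferon-stimulated genes with an edge peak in both lists was above 0. The median of the 23 was -0.92. OAS1, an antiviral synthetase, had 409 reads in ATRA+POM cells, 796 in POM cells and 59 in DMSO cells, and MX2, an antiviral GTPase, had 43 reads in ATRA+POM cells, 173 in POM cells and 86 in DMSO cells.

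A new edge peak was rare and a missing one was common. In the ATRA+POM list 56 genes had an edge peak that the POM list lacked, 0.280% of the 19970 genes, and 4 of these rested on a shared peak that only crossed the 1000 bp limit, DHRS3 among them. Among the 52 that rested on added peaks alone, the strongest after CD1D were GFRA1, a neurotrophic factor receptor (197 reads), and HEY2, a Notch target (114 reads). ADH1C, an alcohol dehydrogenase, and RSAD2, the antiviral protein viperin, also gained one, with 53 and 44 reads. In the other direction 1350 genes had an edge peak with POM and not with ATRA+POM, 6.76% of all genes and 14.0% of those with one with POM. For 1295 of them every window peak was a removed peak. With a fold of at least 10 asked of both lists 2560 genes were in this class, and with equal numbers of the strongest peaks 91 genes were in the other. DMSO had an edge peak at 1116 of the 1350 genes. By peaks in place of genes, 3502 of the 4182 removed peaks at a gene edge had a DMSO counterpart. Of all 15212 POM peaks at a gene edge 14306 had one, so a counterpart was less common among the removed. Among these 1295 genes the strongest peaks were at CENPM, a centromere protein (263 POM reads, 431 with DMSO), and ZBTB17, a MYC partner (198 POM reads). MUC1, a mucin, had no ATRA+POM peak, 5 POM peaks of up to 167 reads and no DMSO edge peak.

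Genes of the cell cycle and DNA replication were lower than most at their edges. Of the 47 genes in this list 40 had an edge peak in both lists, and all 40 had fewer reads with ATRA+POM. The direction alone does not set them apart, because only 145 of 8314 genes (1.74%) were higher with ATRA+POM. None of 46 ribosomal protein genes and 30 proteasome genes was higher either. The size of the drop differed more. The 40 cell cycle genes had a median of -1.37, beside -0.98 over all genes. Of the 40, 13 were at least 4-fold lower, beside 3.34% of all genes with a peak in both. These ratios compare the strongest edge peak in each list, which need not lie at the same position. Where summits lay within 50 bp of each other, 6 of 30 cell cycle genes and 2.22% of 6342 genes were at least 4-fold lower, with medians of -1.30 and -0.96. RRM2, a subunit of the enzyme that makes deoxynucleotides, had 96 reads in ATRA+POM cells, 867 in POM cells and 715 in DMSO cells. Its log2 ratio was -3.17 between the strongest edge peaks and -1.97 at paired summits. TYMS, which makes thymidylate, had 35 reads in ATRA+POM cells, 252 in POM cells and 345 in DMSO cells. TOP2A, a DNA topoisomerase, had 24 reads with ATRA+POM and 162 with POM. AURKB, a mitotic kinase, had 58 reads with ATRA+POM and 351 with POM. TOP2A and AURKB had 296 and 518 reads with DMSO, so in all 4 genes ATRA+POM stood below both other conditions. TYMS, TOP2A and AURKB had no paired summits. CDK1, the mitotic cyclin-dependent kinase, had 242 reads with ATRA+POM and 292 with POM, a log2 ratio of -0.27, against -0.93 at paired summits. The median was -1.02 over 46 ribosomal protein genes and -1.04 over 30 proteasome genes, with similar POM levels (medians of 230 and 294.5 reads, beside 259.5 for the cell cycle genes).

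**Figure D4:**
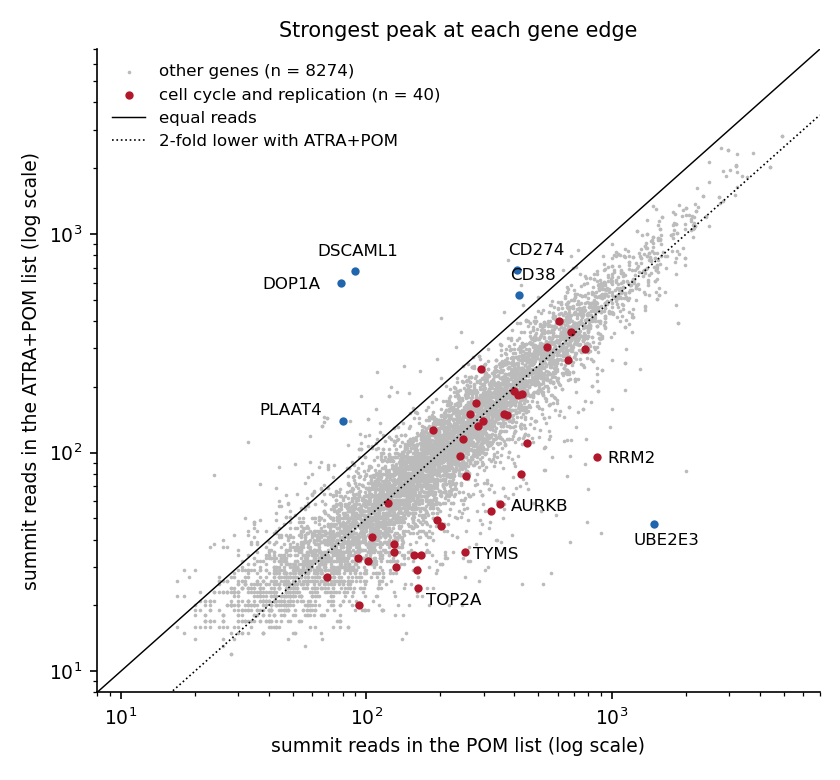
Summit reads of the strongest peak at each gene edge in the ATRA+POM list (y axis, log scale) against the POM list (x axis, log scale) for the 8314 genes with a peak in both. Most genes follow the dotted 2-fold line, cell cycle genes such as RRM2 and TOP2A lie under it, and CD38, CD274, PLAAT4, DOP1A and DSCAML1 lie above the line of equal reads.

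A further 6 cell cycle genes lost the edge peak altogether, 13.0% of the 46 with one with POM, close to the 14.0% of all genes. They include BIRC5, the mitotic survival protein survivin, with no ATRA+POM peak at its locus, 117 POM reads and 182 DMSO reads. MCM6, a subunit of the replicative helicase, had no ATRA+POM peak and 4 POM peaks of up to 96 reads. Promoters of this class often carry E2F sites. The words TTTCCCGC and TTTGGCGC, on either strand, stood in the promoter of 17 of the 39 cell cycle genes with a listed start (43.6%), beside 3.71% of 15812 genes. Genes with such a word had a median log2 ratio of -1.10 (369 genes) and genes without it -0.97 (6629 genes). The promoters of TYMS (chr18:657403-657702, plus strand) and MCM6 (chr2:135876394-135876693, minus strand) are shown with these words in capitals.
TYMS: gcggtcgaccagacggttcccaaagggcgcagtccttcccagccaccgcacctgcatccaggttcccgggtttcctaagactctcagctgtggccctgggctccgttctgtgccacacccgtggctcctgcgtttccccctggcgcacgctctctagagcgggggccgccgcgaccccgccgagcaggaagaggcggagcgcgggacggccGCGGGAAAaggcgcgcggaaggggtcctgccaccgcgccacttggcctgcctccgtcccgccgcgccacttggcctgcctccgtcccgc
MCM6: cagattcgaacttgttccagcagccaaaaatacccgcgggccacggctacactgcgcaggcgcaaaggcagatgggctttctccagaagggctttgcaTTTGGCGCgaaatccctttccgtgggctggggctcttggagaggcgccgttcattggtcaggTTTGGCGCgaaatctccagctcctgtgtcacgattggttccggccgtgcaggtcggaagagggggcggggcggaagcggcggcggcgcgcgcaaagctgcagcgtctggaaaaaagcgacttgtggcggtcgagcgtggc

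**Figure D5:**
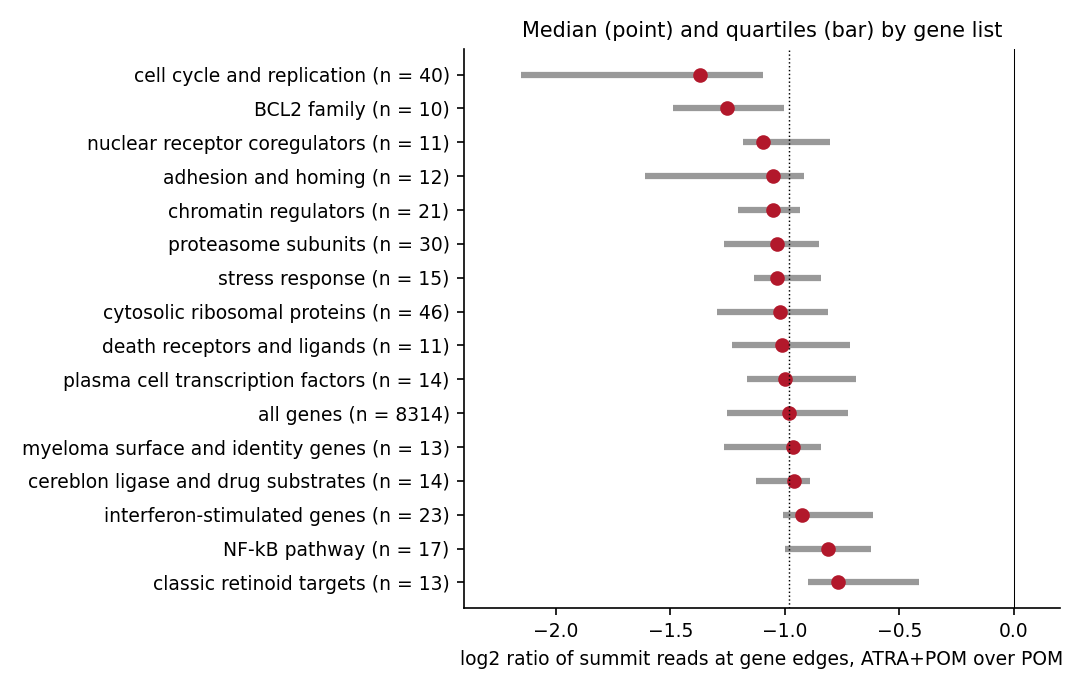
Median (point) and quartiles (bar) of the log2 ratio of summit reads at gene edges, ATRA+POM over POM (x axis), for gene lists with at least 10 genes that had an edge peak in both lists (y axis). The list of 10 plasma cell markers is not drawn. All medians lie below 0, from -1.37 for the cell cycle genes to -0.77 for the classic retinoid targets, and the dotted line marks -0.98 over all genes.

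The genes of the drug's own targets had peaks in both lists. IKZF1 had 775 reads at its edge in ATRA+POM cells, 1431 in POM cells and 1110 in DMSO cells. IKZF3 had 796 reads in ATRA+POM cells, 1576 in POM cells and 1050 in DMSO cells. Across 14 genes of the cereblon ligase and its substrates with an edge peak in both lists the median log2 ratio was -0.96, near that of all genes. CRBN, cereblon itself, had no edge peak with ATRA+POM and 1 of 21 reads with POM, and 2 peaks at its locus in each list. HDAC5, a class IIa deacetylase, had 19 peaks at its locus in ATRA+POM cells, 21 in POM cells and 3 in DMSO cells. At its edges it had 156 reads in ATRA+POM cells, 273 in POM cells and 717 in DMSO cells. ZBTB16, a transcription factor that cereblon ligands can target, carried the strongest removed peak of all, chr11:114172708-114173712, with 599 POM reads and 794 DMSO reads. It had 2 peaks of up to 223 reads with ATRA+POM and 5 of up to 739 with POM.

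Of the 14 plasma cell transcription factors with an edge peak in both lists, 9 lay below the median of all genes (-0.98), and their log2 ratios ranged from -1.64 at MYC to -0.33 at RUNX3, a lymphoid factor. IRF4, its master regulator, had 167 reads with ATRA+POM and 391 with POM. XBP1, the secretory stress factor, had 669 reads with ATRA+POM and 1544 with POM. TNFRSF17, which encodes BCMA, had 747 reads with ATRA+POM and 1796 with POM. MYC had 26 reads with ATRA+POM and 81 with POM. BCL2, the survival gene, had 7 peaks of up to 1050 reads with ATRA+POM and 14 of up to 2698 with POM. Of the 16 BCL2 family genes 9 had fewer peaks with ATRA+POM, 1 had more and 6 had the same count. Of all 19970 genes 5835 had fewer (29.2%), 3371 had more (16.9%) and 10764 had the same count. With equal numbers of the strongest peaks, 4422 of all genes had fewer and 4225 had more. The BCL2 family was not recounted in that way. Its median log2 ratio at edges was -1.25 (10 genes).

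The strongest added and removed regions, those named above included, differed in how often DMSO also had them. Of the 15 added peaks with the highest authors' −log10 q, 2 had a DMSO counterpart, beside 28.8% of all added peaks. Of the 15 removed peaks 10 had one, beside 51.1% of all removed peaks. Added ones include a 509-read peak in SLC2A5, a fructose transporter, a 520-read peak in CAMK1D, a kinase gene, and a 359-read peak 177 kb from NR4A2, an orphan nuclear receptor. Removed ones include a 559-read peak in PLEKHG3, a 440-read peak 128 kb from PELI1, a ubiquitin ligase, and a 379-read peak 76.4 kb from CTSC, a protease. Some shared regions differed widely in either direction. A peak nearest to CREB5 had 696 reads with ATRA+POM and 70 with POM, 1 near ANKRD30A had 1351 with ATRA+POM and 160 with POM, and 1 near VAV3, a lymphoid exchange factor, had 42 with ATRA+POM and 462 with POM.

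Added peaks also came in runs, joined here where gaps were at most 20 kb. The 4944 added peaks formed 3744 runs, and 73 had 4 peaks or more. The largest held 33 added peaks over 85.4 kb around NXT1 and GZF1 on chromosome 20, where ATRA+POM had 41 peaks and POM had 8. The strongest shared ratio lay there too, 14.9 kb from NXT1, with 489 reads in ATRA+POM cells, 25 in POM cells and 49 in DMSO cells. A run at RNF187 on chromosome 1 held 9 added peaks. Several runs lay beside centromeres, and the local background was high at some of them. There, 2 runs of 11 peaks on chromosome 16 had median backgrounds of 237 and 120 reads and median folds of 2.08 and 2.05. The median background over all added peaks was 6.37 reads. Runs of 16 and 9 peaks on chromosome 19 had median backgrounds near that, 7.89 and 7.54 reads, and median folds of 4.13 and 5.34. The part of background in these runs was not tested. Removed peaks formed runs of up to 15. A run of 14 lay over PLEKHG3 and SPTB, where ATRA+POM had 2 peaks and POM had 16. DNAJC1 had 22 removed peaks at its locus, with 21 ATRA+POM peaks and 32 POM peaks in all. RAP1GAP2, a Rap regulator, had 7 ATRA+POM peaks and 27 POM peaks.

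The DR5 search over promoters gave few matches. With half-sites AGGTCA or AGTTCA or GGGTCA or GGTTCA on either strand and 5 bases between them, 17 of 22155 listed protein-coding promoters held one (0.0767%), at 16 genes. At 6 of these genes an edge peak was called in both lists, with a median log2 ratio of -0.77, beside -0.98 for genes without a match. BATF2, an AP-1 family factor, had a promoter peak of 58 reads in ATRA+POM cells and 48 in POM cells, and none in DMSO cells. HROB went the other way, with no promoter peak in ATRA+POM cells, 91 reads in POM cells and 172 in DMSO cells. PHF8, a histone demethylase, had 166 reads with ATRA+POM and 240 with POM. None of the 42 genes with a listed start and a new edge peak had a match. A match describes letters only, and its absence says nothing of binding.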

How the data were processed

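ChIP libraries of OPM-2 cells (1 each for ATRA+POM, POM, DMSO and ATRA) were used as the authors' peak lists, without replicates; the input libraries were not used here. Each deposited list gives position on hg38 (per the submitters' processing notes), a score (10 times −log10 p), a fold enrichment, a −log10 p-value, a −log10 q-value and a summit offset. Neither the peak caller nor the antibody is named in the sources used here. The authors' deposited fold is set within each library and is not scaled between libraries.

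Overlaps were computed in Python 3.11.15 on chromosomes 1-22 and X and gave the same counts as bedtools 2.31.1. Summit reads n and background b were inferred from fold = (n+1)/(b+1) and the Poisson p-value, a step the submitters do not state. It was checked on simulated data. Gene positions and promoters came from RefSeq tables (19970 protein-coding genes, 15812 with a listed start). Intervals are 95% Wilson intervals and cover counting error only. With 1 library a side there is no test and no p-value.

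The regions, gene lists and named genes were chosen with earlier results of these data known. The rule for named genes took 18 fixed genes, the 15 strongest added and 15 strongest removed peaks, the 10 genes with most of each, the 10 strongest edge peaks in 1 list, up to 4 such genes per gene list, and the 10 highest and 10 lowest shared pairs. All other genes named, including further members of the gene lists such as RRM2, CD38, FABP5 and MUC1, were chosen after their values were seen. Alternatives covered the overlap, the threshold, the window, the summit distance and the scaling.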

Additional observations from a re-analysis of the deposited data

How the results depend on the processing

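No paired analysis was possible because each list came from 1 library, so no replicate could be left out either. Asking for 50% overlap of the shorter peak gave 5225 added and 19916 removed peaks, and counting peaks within 500 bp as shared gave 3825 and 13949. The stronger 50% of each list gave 2386 added (10.1%) and 8699 removed peaks (32.1%). Equal numbers of the strongest peaks gave 6165 (13.1%) and 14021 (29.7%), and a fold of at least 10 gave 1545 (8.38%) and 10981 (42.2%). These shares are of the peaks kept in each list. The share of added peaks with a DMSO counterpart (28.8%) was 27.4% within 500 bp, 26.5% in the stronger 50%, 30.9% at equal numbers and 23.8% at fold 10. The share of removed peaks with one (51.1%) was 49.6% at 50% overlap, 52.2% within 500 bp, 58.2% in the stronger 50%, 52.0% at equal numbers, 53.5% at a −log10 q of at least 10 and 55.2% at fold 10. Genes with a new edge peak numbered 43 to 82 under the other alternatives and 91 at equal numbers. Genes missing one numbered 1134 to 1923, and 2560 at fold 10. The median log2 ratio at shared summits was -0.78 for summits on the same base, -0.68 after division by relative depth, -0.66 from the authors' fold and -0.81 with at least 50 POM reads. At equal numbers the balance of peak counts at cell cycle loci turned round, with 22 genes having more peaks with ATRA+POM and 12 fewer, against 17 and 21 over the whole lists. The following alternatives were chosen after seeing the data. The median over all genes at edges was -0.93 from the fold, -0.96 at paired summits, -1.01 with at least 100 POM reads and -0.94 after division by depth, and that of the cell cycle genes lay between -1.46 and -1.30. Where these values moved, the cause was not tested.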
